A study of Mus musculus with 20 samples.

Results

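The genes described here encode the lysosomal cathepsins, the subunits of the vacuolar proton pump and its accessory proteins, and the lysosomal membrane glycoproteins Lamp1 and Lamp2. They were taken by name from the array's own annotation: every non-control probe named as a cathepsin of the letters a to h, k, l, o, s or z, as a gene beginning Atp6v or Atp6ap, or as Lamp1 or Lamp2, with the brightest probe standing for each gene. This gave 38 genes of 27962 on the array, measured by 58 probes, and all 38 were among the 25536 genes tested. They comprised 12 cathepsins (9 cysteine, 2 aspartic and 1 serine protease), 13 subunits of the V1 sector, 9 of the V0 sector, 2 accessory proteins and the 2 Lamp genes. Ctsa fell outside the rule, because the array names its 3 probes Ppgb.

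RNA came from 2 leg muscles of male ICR mice aged 6 months, and each array held the RNA of 1 muscle of 1 animal. In hind-limb suspension (HLS) the tail was held up for 24 h at a head-down tilt of 45°, so that the hind limbs bore no weight, and control animals moved freely. The 4 groups were soleus HLS, soleus control, gastrocnemius HLS and gastrocnemius control, with 5 arrays each; both muscles of an animal were sampled, and HLS and control animals were different mice. Slow fibres make up a larger part of the soleus, which holds posture, than of the gastrocnemius, where fast fibres predominate. Whole muscle was used, so fewer cells of a type and less RNA per cell cannot be told apart. The labels name no genetic change in any group.

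Lysosomes break down protein, lipid and carbohydrate delivered by autophagy and endocytosis. The V-ATPase acidifies them: its V1 sector hydrolyses ATP on the cytosolic side and its V0 sector carries protons through the membrane, and the acid both activates the cathepsins and suits their catalysis. In skeletal muscle the autophagy-lysosome route degrades protein beside the ubiquitin-proteasome system, and Ctsl is a familiar member of the set of transcripts that go up in wasting muscle.

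Levels are given as log2 of the processed spot signal minus the 75th percentile of the same array, so a level of 0 lies at that percentile and differences are log2 differences relative to it. Tests are limma's moderated test in 1 fit over all 20 arrays, and a gene was called at a Benjamini-Hochberg adjusted p below 0.05 over the 25536 genes. Between 80.75% and 93.08% of spots were well above background on an array. Slow-fibre markers separated the muscles (Tnni1 differed by 3.76 between the control muscles, adjusted p = 5.6e-06), and 9 of 10 skeletal muscle markers were called there. The array labelled soleus HLS 1 stood apart in Tnni1, at 4.15 against 6.72 to 7.36 on the other soleus HLS arrays. Results of members that rest on it are therefore also given without it. The fast-fibre marker Myh4 varied on other soleus arrays too. It was at 9.47, 5.21, 5.99, 8.51 and 4.21 in soleus HLS, against 8.37, 5.84, 5.04, 7.9 and 4.7 in soleus control. In gastrocnemius it ran from 8.35 to 8.96 in HLS and from 8.5 to 8.76 in control. Against the spike-in RNA, the level of every gene would shift by -0.33 in the soleus HLS contrast, 1.15 in the gastrocnemius HLS contrast and 1.45 between the control muscles.

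Most of these genes were not called in either HLS contrast. In soleus HLS against soleus control, 3 of the 38 rose (Ctsl, Ctsf and Atp6v0e2) and 1 fell (Atp6ap2), beside 2.38% of all genes called higher and 3.52% called lower, 5.91% in all. The median difference of the 38 genes was 0.03, against 0.05 over all genes tested, and their differences ran from -0.52 to 0.82. At an unadjusted p below 0.05 there were 10 of 38 members and 4567 of 25536 genes. In 2 members every HLS array lay above every control array and in 1 every HLS array lay below, beside 2.16% and 2.88% of all genes and 5.04% in either direction.

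The cysteine protease Ctsl, a lysosomal endopeptidase, was at 6.15, 6.01, 6.06, 5.91 and 6.82 in soleus HLS, against 5.49, 5.08, 5.24, 5.54 and 5.47 in soleus control. All 5 HLS arrays lay above all 5 control arrays, and the HLS array of animal 5 was highest by a wide gap. Ctsl rose by 0.82 ± 0.16 (SE), a 1.77-fold change with a 95% interval of 1.40 to 2.24 and an adjusted p of 0.00293. Without the array of animal 5 the difference was 0.67 (adjusted p = 0.0063), and without soleus HLS 1 it was 0.83 (adjusted p = 0.0063).

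Ctsf, a second lysosomal cysteine protease of the papain family, was at 1.11, 1.34, 1.23, 1.28 and 1.09 in soleus HLS, against 0.75, 0.07, 0.75, 0.26 and 0.97 in soleus control. The groups did not overlap, and the spread was wider among control arrays (SD 0.38) than among HLS arrays (SD 0.11). It rose by 0.65 ± 0.13 (SE), or 1.57-fold (interval 1.29 to 1.91), with an adjusted p of 0.00449. Without soleus HLS 1 the difference was 0.67 (adjusted p = 0.0074), and in a fit of the 10 soleus arrays alone the adjusted p was 0.065.

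**Figure D1:**
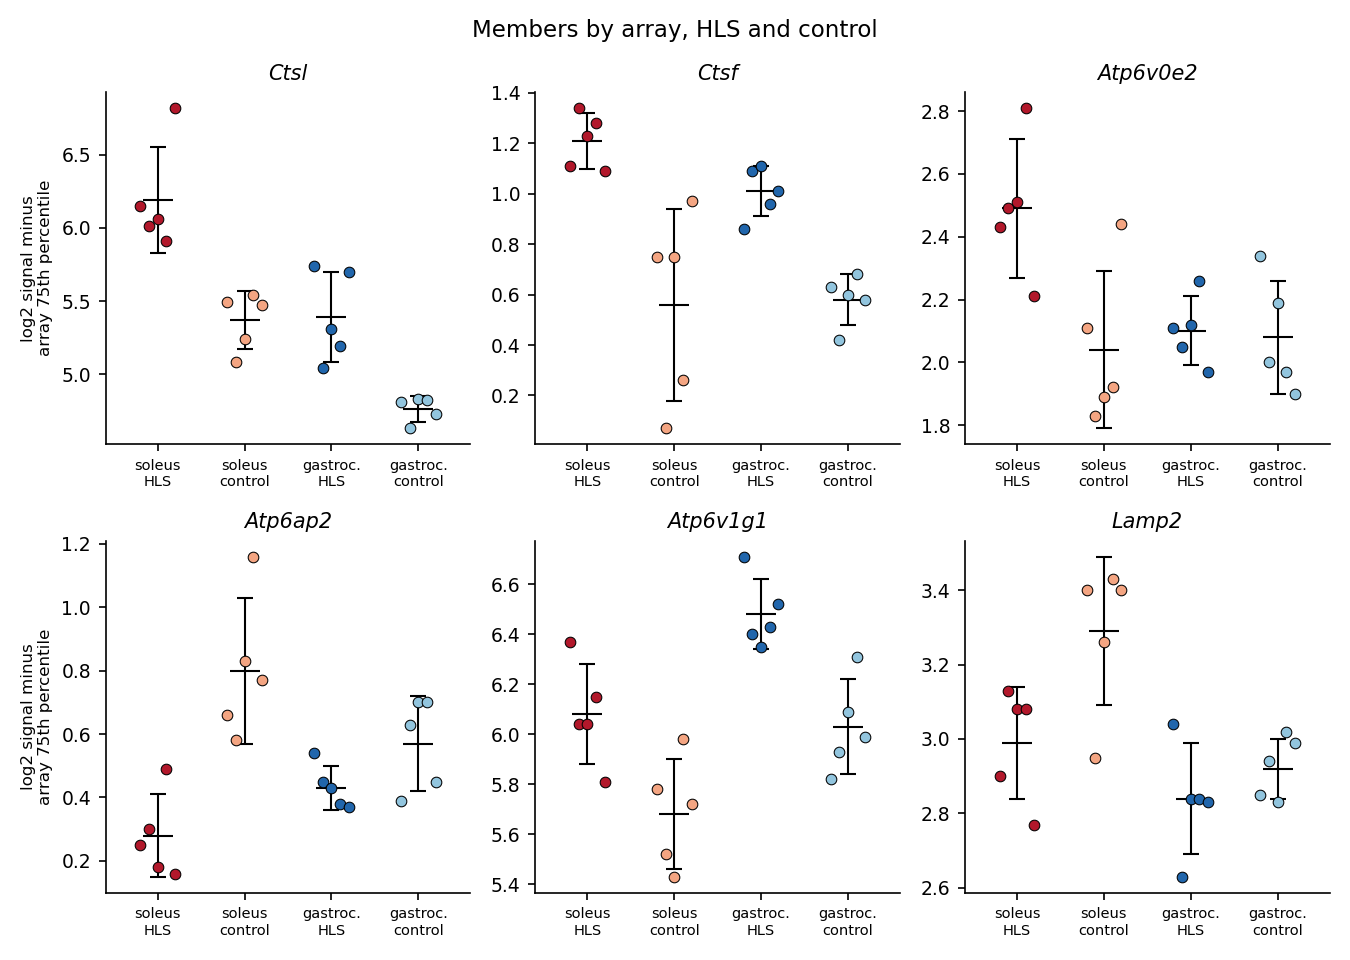
Levels on each array (log2 signal minus the array's 75th percentile) of Ctsl, Ctsf, Atp6v0e2, Atp6ap2, Atp6v1g1 and Lamp2 in soleus HLS, soleus control, gastrocnemius HLS and gastrocnemius control; points are arrays, bars the mean and SD of 5. The Ctsl arrays of soleus HLS sit between 5.91 and 6.82, above those of soleus control at 5.08 to 5.54.

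The other cathepsins did not pass the test in soleus. Ctsb, a cysteine protease with both endopeptidase and carboxypeptidase activity, was at 4.78, 4.82, 4.90, 5.01 and 4.56 in soleus HLS, against 4.90, 4.73, 4.65, 5.11 and 4.76 in soleus control. The groups lay over each other, and the difference was -0.02 with a 95% interval of -0.22 to 0.19 (adjusted p = 0.961). Ctsd, the main lysosomal aspartic protease, was at 5.03, 4.92, 4.73, 4.82 and 4.76 in soleus HLS, against 4.82, 4.38, 4.90, 4.55 and 4.96 in soleus control. Its groups overlapped too, with a difference of 0.13 and an interval of -0.11 to 0.37 (adjusted p = 0.633). Ctse, an aspartic protease found mostly in endosomes of immune and epithelial cells, had a difference of 0.49 ± 0.18 (SE, adjusted p = 0.122). Ctso, a little studied papain-family protease, had one of -0.30 ± 0.13 (SE, adjusted p = 0.217). The differences of the remaining 6 members of the cysteine and serine classes ran from -0.33 for Ctsh, an aminopeptidase, to 0.11 for Ctsc, a dipeptidase that activates granule proteases of immune cells.

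Among the pump genes, Atp6v0e2, one of 2 genes for the small e subunit of the V0 sector, was at 2.43, 2.49, 2.51, 2.81 and 2.21 in soleus HLS, against 2.11, 1.83, 1.89, 1.92 and 2.44 in soleus control. The control array of animal 5 lay inside the HLS range, and the other 4 control arrays lay below it. Atp6v0e2 rose by 0.45 ± 0.13 (SE), or 1.37-fold (interval 1.14 to 1.64), with an adjusted p of 0.0387. The call was lost in 8 of the 10 fits that left out 1 array (adjusted p 0.0077 to 0.099 over the 10), and without soleus HLS 1 the difference was 0.47 (adjusted p = 0.053).

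Atp6ap2, the accessory protein also known as the (pro)renin receptor, was at 0.25, 0.30, 0.18, 0.49 and 0.16 in soleus HLS, against 0.66, 0.58, 0.83, 1.16 and 0.77 in soleus control. Every HLS array lay below every control array. It fell by 0.52 on the log2 scale (SE 0.11), to 0.696-fold with an interval of 0.595 to 0.813 and an adjusted p of 0.00427. Without soleus HLS 1 the difference was -0.52 (adjusted p = 0.01), and in a fit of the 10 soleus arrays alone the adjusted p was 0.06. Atp6ap1, the other accessory protein, had a difference of 0.06 (adjusted p = 0.91).

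No subunit of the V1 sector was called in soleus: of 13, 8 differences were above 0 and 5 below, with a median of 0.02. The nearest was Atp6v1g1, the widely expressed form of the G subunit in the stalk that joins V1 to V0. It stood at 6.37, 6.04, 6.04, 6.15 and 5.81 in soleus HLS, against 5.78, 5.52, 5.43, 5.98 and 5.72 in soleus control. The lowest HLS array lay inside the control range, and the difference was 0.40 ± 0.12 (SE, adjusted p = 0.0646). Without soleus HLS 1 the difference was 0.33 (adjusted p = 0.158). Its second probe gave 0.53 ± 0.13 (SE), with an adjusted p of 0.0144 over all probes tested. The V0 sector had 1 call of 9, with 6 differences above 0, 3 below and a median of 0.10. Atp6v0c, the proteolipid that forms the rotating ring in the membrane, was at 0.03, -0.44, -0.36, -0.04 and -0.52 in soleus HLS, against -0.24, -0.56, -0.29, -0.37 and -0.29 in soleus control. The control range lay within the HLS range apart from its lowest array, and the difference was 0.09 with an interval of -0.19 to 0.36 (adjusted p = 0.794).

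Neither Lamp gene was called. Lamp1, an abundant glycoprotein that lines the lysosomal membrane, was at 4.48, 4.35, 4.42, 4.57 and 4.10 in soleus HLS, against 4.65, 4.28, 4.41, 4.40 and 4.56 in soleus control. The groups overlapped, with a difference of -0.08 (interval -0.28 to 0.13, adjusted p = 0.755). Lamp2, whose splice forms serve chaperone-mediated autophagy and fusion of autophagosomes, was at 2.90, 3.13, 3.08, 3.08 and 2.77 in soleus HLS, against 3.40, 2.95, 3.26, 3.43 and 3.40 in soleus control. All 5 HLS arrays lay below 4 of the control arrays, and control array 2 lay among them; the difference was -0.30 ± 0.11 (SE, adjusted p = 0.124). Leaving out control array 2 gave -0.38 (adjusted p = 0.026), the 1 call among 10 fits that left out 1 array. Over these fits the difference ran from -0.38 to -0.24 and the adjusted p from 0.026 to 0.29. The other 2 Lamp2 probes gave 0.27 ± 0.13 (adjusted p = 0.269), on a transcript annotated apart from that of the brightest probe, and -0.07 ± 0.14 (SEs, adjusted p = 0.852), so the direction depended on the probe.

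**Figure D2:**
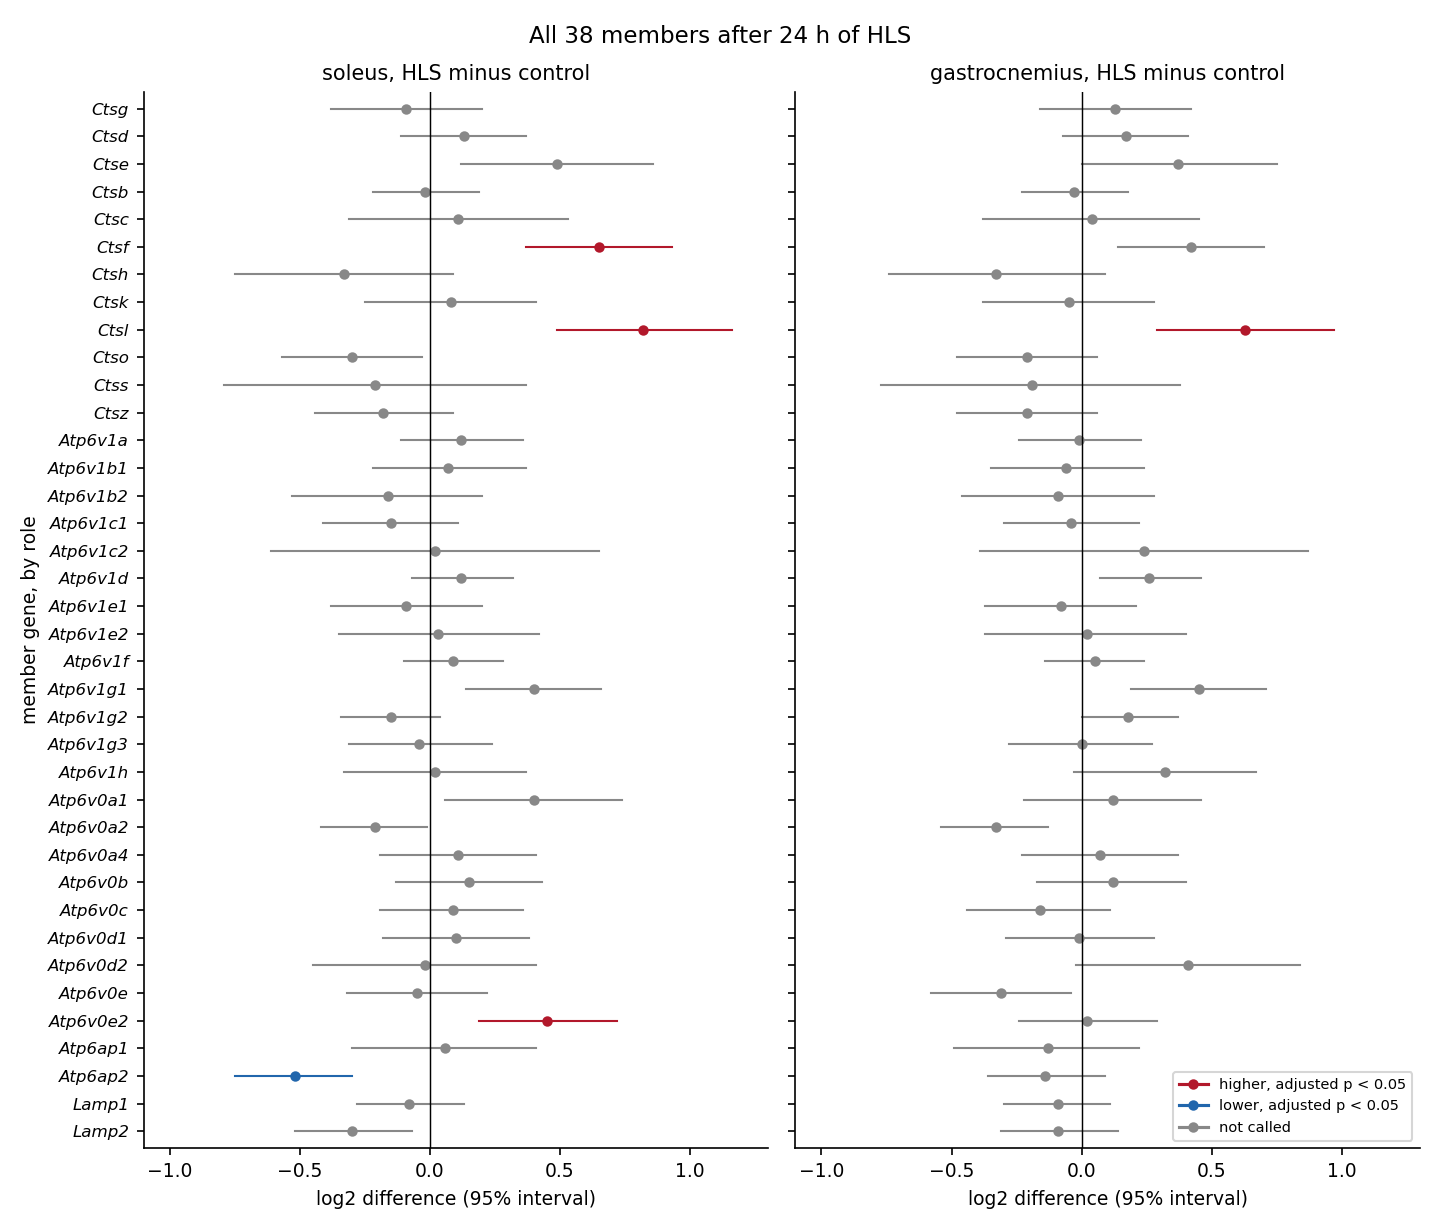
Log2 difference and 95% interval of each of the 38 genes, HLS minus control, in soleus and gastrocnemius; genes run down the page by role and calls at an adjusted p below 0.05 are coloured. In soleus 3 genes are called higher and 1 lower, and in gastrocnemius Ctsl alone is called.

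In gastrocnemius HLS against gastrocnemius control, Ctsl was the only one of the 38 genes called, beside 1.15% of all genes called higher, 2.01% called lower and 3.16% in all. The median difference was -0.01, against 0.01 over all genes tested, and differences ran from -0.33 to 0.63. At an unadjusted p below 0.05 there were 7 members and 3720 genes. There were 3 members with all HLS arrays above all control arrays and none with all below, beside 2.92% and 4.49% of all genes and 7.41% in either direction.

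Ctsl was at 5.74, 5.04, 5.31, 5.19 and 5.70 in gastrocnemius HLS, against 4.81, 4.63, 4.83, 4.82 and 4.73 in gastrocnemius control. The groups did not overlap, the controls lay close together (SD 0.09), and the HLS arrays of animals 1 and 5, which had the 2 highest Ctsl levels in soleus HLS as well, were the 2 highest here. It rose by 0.63 ± 0.16 (SE), or 1.55-fold (interval 1.23 to 1.96), with an adjusted p of 0.0337. The difference kept its sign in all 10 fits that left out 1 array (0.55 to 0.72), but its adjusted p then ran from 0.02 to 0.10 and was above 0.05 in 8 of them: without the HLS array of animal 1, 3 or 5 or without any 1 of the 5 control arrays.

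The other members with the lowest p were the G subunit, an a subunit and Ctsf. Atp6v1g1 was at 6.71, 6.40, 6.35, 6.43 and 6.52 in gastrocnemius HLS, against 5.82, 5.93, 6.09, 6.31 and 5.99 in gastrocnemius control. The groups did not overlap, and the difference of 0.45 ± 0.12 (SE) came to an adjusted p of 0.0505. Its second probe gave 0.28 ± 0.13 (SE, adjusted p = 0.295). Ctsf was at 0.86, 1.09, 1.11, 0.96 and 1.01 in gastrocnemius HLS, against 0.63, 0.42, 0.60, 0.68 and 0.58 in gastrocnemius control. These groups did not overlap either, and the difference was 0.42 ± 0.13 (SE, adjusted p = 0.0997).

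Atp6v0a2, one of the alternative a subunits that form the proton path with the ring, was at -0.04, 0.02, -0.04, 0.03 and 0.08 in gastrocnemius HLS, against 0.59, 0.21, 0.51, 0.36 and 0.04 in gastrocnemius control. The HLS arrays lay close together and overlapped the controls only through control array 5. The difference was -0.33 ± 0.10 (SE, adjusted p = 0.0721). Without control array 5 it was -0.41 (adjusted p = 0.022), the 1 call among 10 fits that left out 1 array. Over these fits the difference ran from -0.41 to -0.27 and the adjusted p from 0.022 to 0.18. In soleus the same probe gave -0.21 ± 0.10 (SE, adjusted p = 0.248).

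The remaining fixed members showed small differences in gastrocnemius. Ctsb was at 4.66, 4.61, 4.77, 4.69 and 4.61 in gastrocnemius HLS, against 4.71, 4.61, 4.66, 4.70 and 4.79 in gastrocnemius control, a difference of -0.03 with an interval of -0.23 to 0.18. Ctsd was at 5.05, 4.76, 4.92, 4.82 and 5.07 in gastrocnemius HLS, against 4.66, 4.63, 4.80, 4.96 and 4.71 in gastrocnemius control, a difference of 0.17 (interval -0.07 to 0.41). Both sets of arrays overlapped. Lamp1 was at 4.45, 4.27, 4.30, 4.32 and 4.44 in gastrocnemius HLS, against 4.43, 4.36, 4.50, 4.59 and 4.37 in gastrocnemius control, a difference of -0.09 (interval -0.30 to 0.11). Lamp2 was at 3.04, 2.63, 2.84, 2.84 and 2.83 in gastrocnemius HLS, against 2.85, 2.94, 2.83, 3.02 and 2.99 in gastrocnemius control, a difference of -0.09 (interval -0.31 to 0.14), while its second probe gave 0.25. Here too the groups overlapped. Atp6v0c was at -0.20, -0.27, -0.48, -0.25 and -0.22 in gastrocnemius HLS, against 0.16, -0.39, -0.10, 0.13 and -0.40 in gastrocnemius control, a difference of -0.16 (interval -0.44 to 0.11). The adjusted p of these 5 genes ran from 0.548 for Ctsd to 0.945 for Ctsb.

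The arrays were spread over 6 slides and 3 scan days, and the groups were not balanced over them. In soleus, slide 5 held HLS arrays 1 to 3 and control array 5, scan day 2 held HLS arrays 1 to 3 and all 5 controls, and HLS arrays 4 and 5 were alone on slide 6 and day 3. With scan day as a block, Ctsl (0.71, adjusted p = 0.035), Ctsf (0.67, adjusted p = 0.028) and Atp6ap2 (-0.55, adjusted p = 0.023) were still called in soleus and Atp6v0e2 was not (0.44, adjusted p = 0.17). With slide as a block none was called: Ctsl was 0.60 (adjusted p = 0.79), Atp6ap2 -0.53 (adjusted p = 0.65), Ctsf 0.26 (adjusted p = 0.90) and Atp6v0e2 0.04 (adjusted p = 0.99). That fit compares 3 HLS arrays with 1 control array on slide 5, and it called 24 genes of all tested. The values within slide 5 and within scan day 2 were those of the 2 blocked fits. Leaving out soleus HLS 1 as well, the differences within scan day 2 were 0.67 for Ctsl, 0.72 for Ctsf, -0.56 for Atp6ap2 and 0.46 for Atp6v0e2.

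In gastrocnemius all 5 control arrays and HLS array 1 were scanned on day 1, and the other 4 HLS arrays on day 2, so the batch values rest on that 1 HLS array. Ctsl differed by 0.94 once slide entered the fit as a block, at an adjusted p of 0.33, and by 0.97 once scan day did, at an adjusted p of 0.18. Atp6v1g1 differed by 0.58 and Ctsf by 0.24 within slide 2. No member was called in either blocked fit, which called 10 and 17 genes of all tested.

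**Figure D3:**
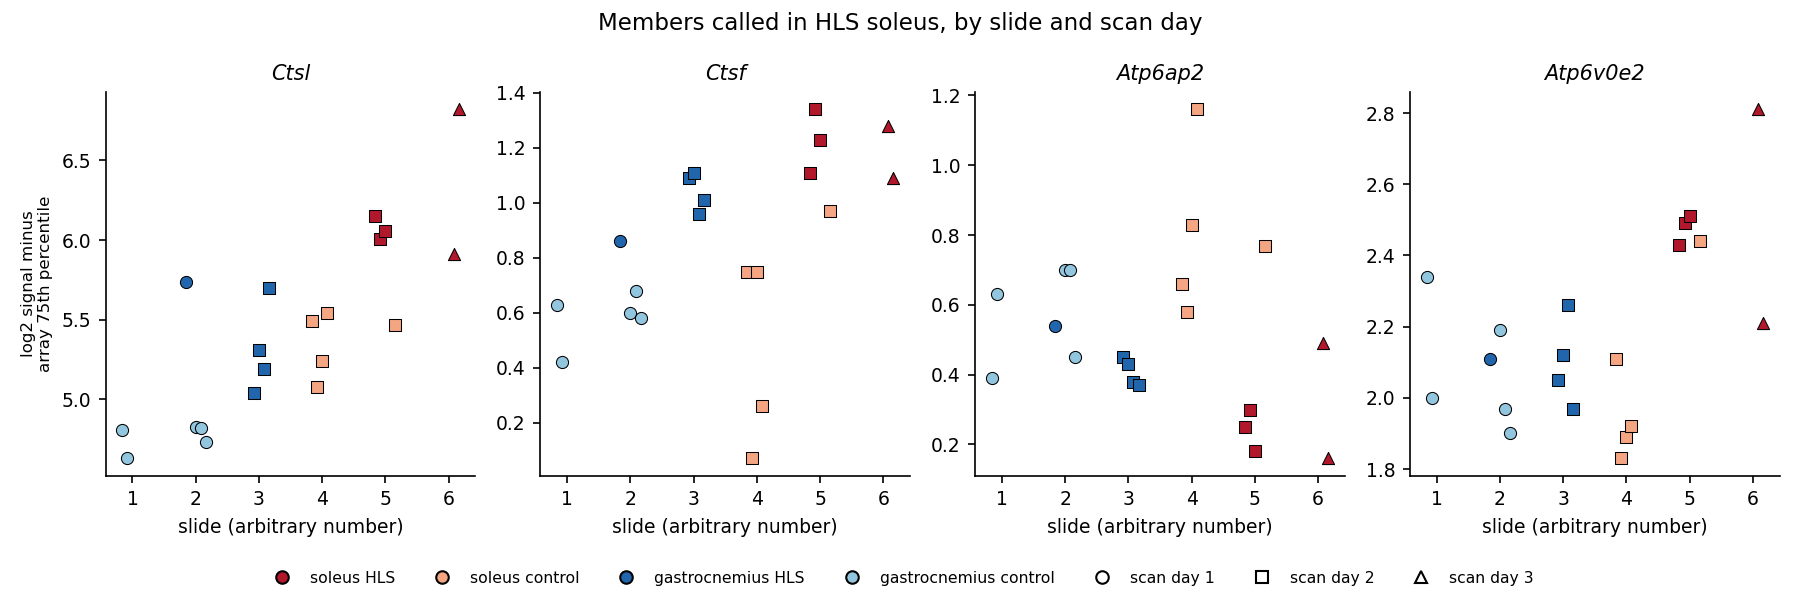
Levels of Ctsl, Ctsf, Atp6ap2 and Atp6v0e2 on each array (log2 signal minus the array's 75th percentile) by slide, with colours for the 4 groups and marker shapes for the 3 scan days. On slide 5 the 3 soleus HLS arrays lie above the 1 soleus control array for Ctsl and below it for Atp6ap2, and on slide 2 the gastrocnemius HLS array lies above the 3 controls for Ctsl.

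The letters of the members' promoters were read for the string CACGTG. A basic helix-loop-helix family of factors (Tfeb, Tfe3 and Mitf) is known to drive lysosomal genes through sites built on it. The windows are the 250 bases before the annotated start from RefSeq (GRCm38.p6), written 5′ to 3′ on the gene's strand in lower case, with each CACGTG in capitals. Ctsl lies at chr13:64370521-64370770 on the minus strand, Ctsf at chr19:4854915-4855164 on the plus strand, Lamp1 at chr8:13158911-13159160 on the plus strand and Atp6ap2 at chrX:12587509-12587758 on the plus strand. Ctsl and Ctsf are shown as genes with a match that rose in soleus. Lamp1 is shown as the member with most matches and a difference near 0, and Atp6ap2 as the gene that fell. Atp6v0e2, which also rose and has no match, is not shown.
Ctsl: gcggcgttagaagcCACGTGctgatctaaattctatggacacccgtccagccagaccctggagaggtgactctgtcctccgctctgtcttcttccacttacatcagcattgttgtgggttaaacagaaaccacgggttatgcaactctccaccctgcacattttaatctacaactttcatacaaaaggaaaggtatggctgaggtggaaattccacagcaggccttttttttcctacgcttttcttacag
Ctsf: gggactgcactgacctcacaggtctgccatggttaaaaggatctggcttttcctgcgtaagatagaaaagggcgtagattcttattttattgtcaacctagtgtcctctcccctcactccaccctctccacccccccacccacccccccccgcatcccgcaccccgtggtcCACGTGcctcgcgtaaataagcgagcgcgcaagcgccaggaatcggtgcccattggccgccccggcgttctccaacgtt
Lamp1: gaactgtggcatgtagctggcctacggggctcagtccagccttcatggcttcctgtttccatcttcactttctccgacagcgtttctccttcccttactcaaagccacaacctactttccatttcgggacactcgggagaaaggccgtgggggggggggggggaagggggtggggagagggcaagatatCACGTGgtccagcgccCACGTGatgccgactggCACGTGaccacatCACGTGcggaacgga
Atp6ap2: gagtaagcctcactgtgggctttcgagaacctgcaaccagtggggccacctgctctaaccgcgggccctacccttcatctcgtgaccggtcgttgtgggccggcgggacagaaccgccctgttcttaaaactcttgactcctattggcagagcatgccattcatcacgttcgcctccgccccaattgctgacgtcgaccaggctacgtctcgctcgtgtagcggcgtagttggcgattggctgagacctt
CACGTG reads the same on both strands. The match begins 236 bases before the start in Ctsl and 79 before it in Ctsf, Lamp1 has 4 matches, and Atp6ap2 has none in these letters. The Ctsl window ends in a run rich in c and t and then ag, letters like those at the end of an intron. Whether that window is promoter sequence was not tested. Of the 38 genes, 29 had an entry in the set of promoter windows used, with 32 windows between them. CACGTG was in a window of 6 of these 29 genes, and in 6.02% of all 32851 windows. The 6 genes were Ctsl, Ctsf, Ctsd, Lamp1, Atp6v1a and Atp6v0b, whose soleus HLS differences were 0.82, 0.65, 0.13, -0.08, 0.12 and 0.15, so 2 of them were called. Among members with a window and no match, Atp6v0e2, which also rose, and Atp6ap2, which fell, were called in soleus. TGTTTAC and its reverse complement GTAAACA, a core that forkhead factors bind, was in 1 member's window (Atp6v1b1) and in 3.17% of all. A longer string with CACGTG at its centre was also searched. It was in a window of 0 of the 29 genes and in 0.24% of all 32851 windows. At so low a share, its absence from the 32 windows of the members says little. A match is a string of letters and not a site of binding.

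The factors themselves were measured too. For them and for the other genes outside the member set, refits by slide, scan day or left-out array are not given. With slide as a block, 24 genes of all tested were called in soleus. Mitf rose in soleus HLS by 0.61 ± 0.16 (SE, adjusted p = 0.0257), and its difference in gastrocnemius HLS was 0.35 ± 0.16 (SE, adjusted p = 0.314). Tfeb differed by 0.20 ± 0.11 in soleus (adjusted p = 0.38) and by 0.21 ± 0.11 in gastrocnemius (SEs, adjusted p = 0.435). Tfe3 differed by 0.03 (adjusted p = 0.966) and 0.10 (adjusted p = 0.904). Of 13 genes that regulate lysosomal genes, these 3 included, 1 rose and 4 fell in soleus, beside 2.38% and 3.52% of all genes, and none of the 13 was called in gastrocnemius. The 3 lowest were Fnip1, a partner of folliculin, at -0.73 ± 0.17 (adjusted p = 0.0125), the small GTPase Rraga at -0.73 ± 0.19 (adjusted p = 0.0209) and Rptor, a subunit of the growth kinase complex mTORC1, at -0.40 ± 0.09 (SEs, adjusted p = 0.0098).

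Other lysosomal genes were read beside the share of all genes called, 5.91% in soleus HLS and 3.16% in gastrocnemius HLS. Of 35 further hydrolases and activators, Sgsh, a heparan sulfatase, fell in soleus by 0.43 (SE 0.12, adjusted p = 0.0414) and no other gene was called. None of 14 membrane proteins and none of 10 cathepsin inhibitors was called, and of 9 genes for mannose 6-phosphate sorting Gga3, a coat adaptor, fell by 0.43 (SE 0.11, adjusted p = 0.0224). Of 10 further pump and assembly genes, Vma21, a chaperone for V0 assembly, fell in soleus by 0.61 (SE 0.12, adjusted p = 0.00362). Tcirg1, the a3 subunit of osteoclast and lysosomal pumps, differed by 0.13 (adjusted p = 0.679) in soleus and 0.04 (adjusted p = 0.942) in gastrocnemius. In gastrocnemius no gene of these 5 lists was called. Ctsa differed by -0.11 (adjusted p = 0.656) in soleus and -0.21 (adjusted p = 0.367) in gastrocnemius.

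Cathepsins are abundant in macrophages, so macrophage markers were read beside them. None of 14 was called in any contrast, and all were well above background on at least 4 arrays of every group. Their summed linear level, in units of the array's 75th percentile, ran from 28.4 to 92.6 in soleus HLS and from 41.0 to 81.7 in soleus control, and from 37.1 to 53.8 in gastrocnemius HLS and from 37.8 to 50 in gastrocnemius control. Ctss, which trims the invariant chain in antigen-presenting cells, was at 0.47, 1.87, 2.21, 2.07 and 0.96 in soleus HLS, against 1.71, 1.15, 1.72, 2.52 and 1.52 in soleus control. Its 2 low HLS arrays were those of animals 1 and 5, where the macrophage marker Cd68 was also lowest, at -2.74 and -2.70 against -1.74 to -1.23 on the other soleus HLS arrays. The Ctss difference was -0.21 with an interval of -0.79 to 0.37 (adjusted p = 0.769), and without soleus HLS 1 it was 0.06 (adjusted p = 0.94). The differences of Atp6ap1, Atp6v0e, Atp6v1e2, Atp6v1h and Ctsc, none of them called, also turned in sign without that array, to values of -0.06 to 0.03. None of 4 adipocyte markers was called in soleus HLS, where their median difference was -0.60, and their summed level ran from 3.56 to 22 in soleus HLS and from 8.06 to 34.2 in soleus control. The part of cell makeup in these levels was not tested.

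The HLS effect was then compared between the muscles, as the soleus difference minus the gastrocnemius difference. No member was called by limma, and of all genes 2 were (0.00783%), while 3 members and 1465 genes had an unadjusted p below 0.05. Ctsl gave 0.19 ± 0.23 (SE), with an interval of -0.28 to 0.67 (adjusted p = 0.962), and Ctsf 0.23 with an interval of -0.17 to 0.62. Ctsb gave 0.01 (interval -0.28 to 0.30), Ctsd -0.05 (interval -0.39 to 0.29), Lamp1 0.02 (interval -0.27 to 0.31), Lamp2 -0.21 (interval -0.52 to 0.11) and Atp6v0c 0.25 (interval -0.14 to 0.64). The 4 lowest p belonged to Atp6v1g2, Atp6ap2, Atp6v0e2 and Atp6v0d2. Atp6ap2 gave -0.38 ± 0.15 (SE, adjusted p = 0.768): it was at 0.54, 0.45, 0.43, 0.38 and 0.37 in gastrocnemius HLS, against 0.39, 0.63, 0.70, 0.70 and 0.45 in gastrocnemius control, and these arrays overlapped. Atp6v0e2 gave 0.43 ± 0.18 (SE, adjusted p = 0.816), with 2.11, 2.05, 2.12, 2.26 and 1.97 in gastrocnemius HLS, against 2.34, 2.00, 2.19, 1.97 and 1.90 in gastrocnemius control. Here the gastrocnemius groups lay over each other, and the second probe of Atp6v0e2 gave -0.02 (adjusted p = 0.995).

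Atp6v1g2, a G subunit known best from neurons, gave -0.33 ± 0.13 (SE, adjusted p = 0.75), and its second probe gave 0.02 (adjusted p = 0.994). On the brightest probe it was at -0.81, -0.95, -0.93, -0.90 and -0.93 in soleus HLS, against -0.74, -0.53, -0.82, -0.82 and -0.88 in soleus control. In gastrocnemius HLS it was at -0.97, -0.95, -1.16, -0.77 and -1.05, against -1.06, -1.13, -1.14, -1.27 and -1.22 in gastrocnemius control. The groups overlapped in both muscles. Atp6v0d2, the d subunit of osteoclast pumps, gave -0.43 ± 0.29 (SE, adjusted p = 0.924) close to the detection limit: it was well above background on 5 soleus HLS, 5 soleus control, 4 gastrocnemius HLS and 2 gastrocnemius control arrays. Its levels were -3.25, -3.46, -3.54, -3.55 and -2.53 in soleus HLS, against -3.43, -2.89, -3.45, -3.19 and -3.27 in soleus control. In gastrocnemius HLS they were -3.17, -3.04, -3.78, -2.76 and -2.74, against -3.10, -3.41, -3.76, -3.78 and -3.48 in gastrocnemius control, and the groups overlapped in both muscles.

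In soleus control against gastrocnemius control, 6 of the 38 genes were higher and 6 lower, beside 12.6% of all genes called higher, 20.9% lower and 33.5% in all, so about the same share of the members was called as of all genes. With each array centred on its median instead, the split was 9 higher and 3 lower. Of the members 3 had all soleus arrays above all gastrocnemius arrays and 4 had all below, beside 8.26% and 13.3% of all genes and 21.6% in either direction. Median differences were 0.04 over the 38 genes and -0.06 over all genes tested. Each control muscle was hybridised on slides of its own and scanned on a day of its own, except that HLS arrays link the days: muscle and slide cannot be told apart, and with scan day as a block no member was called, though 1402 genes of all were.

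**Figure D4:**
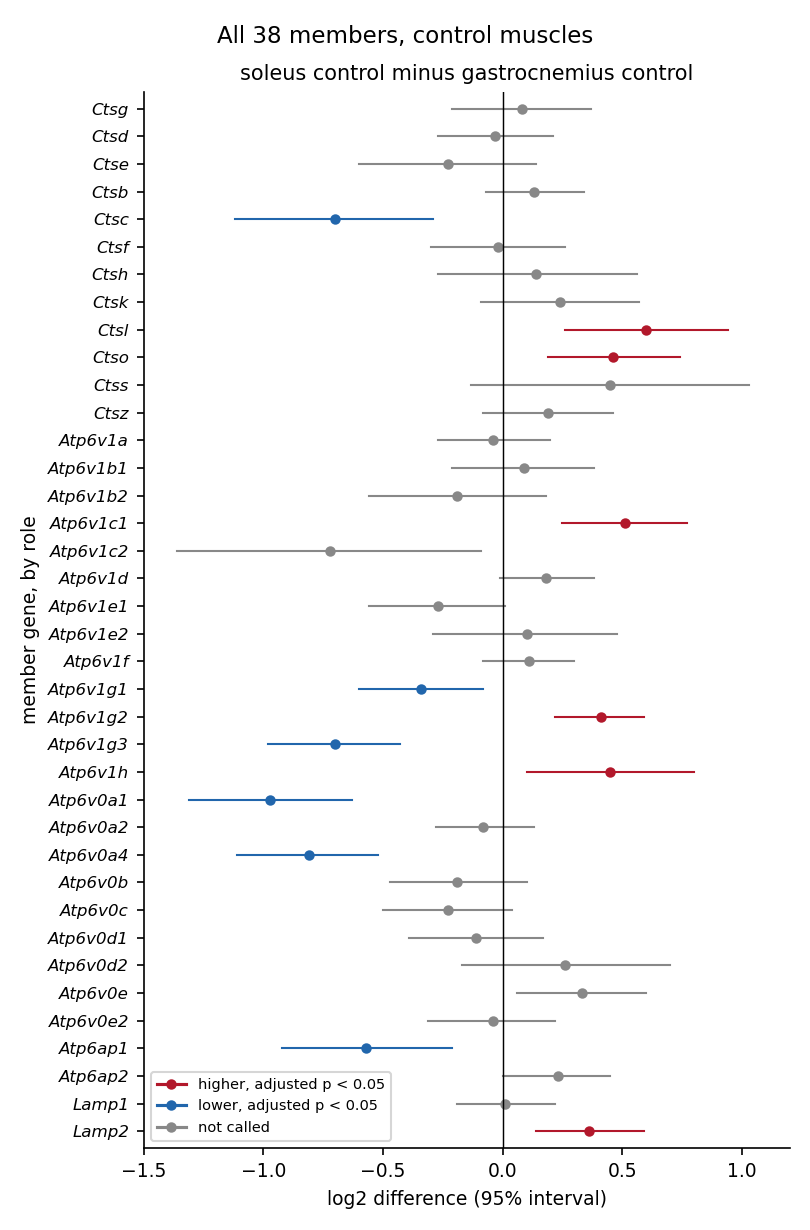
Log2 difference and 95% interval of each of the 38 genes, soleus control minus gastrocnemius control, by role; calls at an adjusted p below 0.05 are coloured. The lowest values are those of the a subunits Atp6v0a1 (-0.97) and Atp6v0a4 (-0.81), and Ctsl (0.60) is the highest.

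Atp6v0a1, the a subunit best known from neurons, was at -1.16, -1.39, -0.82, -1.60 and -0.77 in soleus control, against -0.18, -0.01, -0.15, -0.01 and -0.56 in gastrocnemius control. The groups did not overlap, and it was lower in soleus by 0.97 on the log2 scale, at 0.511-fold (interval 0.404 to 0.647, adjusted p = 0.000192). A second probe gave -0.48 ± 0.10 (SE, adjusted p = 0.00156) and the dimmest one 0.12 ± 0.11 (SE, adjusted p = 0.438). Soleus HLS 1, whose Tnni1 level lay nearest to gastrocnemius, was at -0.22, above the -1.01 to -0.75 of the other soleus HLS arrays.

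Atp6v0a4, the a subunit of acid-secreting kidney cells, was at -1.77, -1.82, -1.51, -2.16 and -2.11 in soleus control, against -0.85, -1.07, -1.29, -1.06 and -1.03 in gastrocnemius control. Every soleus array lay below every gastrocnemius array, at 0.568-fold (interval 0.462 to 0.700, adjusted p = 0.00029). Its second, dimmer probe gave -0.21 ± 0.21 (SE, adjusted p = 0.466). Atp6v1g3, a G subunit of the kidney, was at -0.99, -1.07, -0.96, -0.75 and -1.30 in soleus control, against -0.42, -0.21, -0.40, -0.30 and -0.22 in gastrocnemius control. Again the groups did not overlap, with 0.614-fold (interval 0.507 to 0.743, adjusted p = 0.000506). Another probe of Atp6v1g3 was too dim to pass the background filter and was not tested. In both genes the HLS arrays of each muscle lay with that muscle's controls, at -2.03 to -1.41 and -1.56 to -0.72 in soleus HLS and at -1.21 to -0.60 and -0.36 to -0.27 in gastrocnemius HLS.

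Atp6ap1 was at 0.63, 0.34, 0.94, 0.36 and 1.06 in soleus control, against 1.31, 1.33, 1.31, 1.49 and 0.73 in gastrocnemius control. Gastrocnemius control 5 lay among the soleus arrays and the other 4 lay above them, and the difference was -0.57 ± 0.17 (SE, adjusted p = 0.0144). Atp6v1g1 was at the 5 soleus control levels given above, 5.43 to 5.98, against 5.82 to 6.31 in gastrocnemius control, with a difference of -0.34 ± 0.12 (SE, adjusted p = 0.0393). Its second probe gave -0.59 (adjusted p = 0.00149). The call on the first probe was lost in 6 of 10 fits that left out 1 array.

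In the V1 sector 3 subunits were higher in soleus. Atp6v1c1, which ties V1 to V0 when the pump assembles, was at 1.07, 0.61, 0.62, 0.99 and 0.61 in soleus control, against 0.29, -0.06, 0.16, 0.38 and 0.58 in gastrocnemius control. The groups did not overlap, with a level 1.43-fold (interval 1.19 to 1.71, adjusted p = 0.00387). Atp6v1g2, at the control levels given above, was higher by 0.41 ± 0.09 (SE, adjusted p = 0.00178) with no overlap, but its second probe gave -0.21 ± 0.16 (SE, adjusted p = 0.332). Atp6v1h, a regulatory subunit, was at 0.24, -0.74, 0.20, 0.02 and 0.35 in soleus control, against -0.44, -0.42, -0.10, -0.42 and -0.79 in gastrocnemius control. Soleus control 2 lay among the gastrocnemius arrays and the other 4 lay above them, with a difference of 0.45 ± 0.17 (SE, adjusted p = 0.0467). This call was lost in 8 of 10 fits that left out 1 array and with the animal as a block (adjusted p = 0.058). Its second probe gave 0.36 (adjusted p = 0.0917) and the dimmest one -0.56 (adjusted p = 0.00481), so the probes of Atp6v1h and of Atp6v1g2 disagreed in direction.

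Among the cathepsins, Ctsl was higher in soleus control than in gastrocnemius control, 5.08 to 5.54 against 4.63 to 4.83, with 1.52-fold (interval 1.20 to 1.92, adjusted p = 0.00736) and no overlap. Its 4 groups therefore ran, from high to low by their means, from soleus HLS (6.19 ± 0.36) through gastrocnemius HLS (5.39 ± 0.31) and soleus control (5.37 ± 0.20) to gastrocnemius control (4.76 ± 0.09, SD, n = 5 each), and the middle pair lay within their spread. Ctso was at 0.60, 0.24, 0.39, 0.95 and 0.61 in soleus control, against 0.26, -0.10, 0.18, 0.05 and 0.07 in gastrocnemius control. The groups overlapped in 1 array each, with a difference of 0.46 ± 0.13 (SE, adjusted p = 0.00992). Ctsc was at 0.67, 0.47, 0.67, 1.02 and 0.99 in soleus control, against 1.33, 1.72, 1.57, 1.42 and 1.31 in gastrocnemius control. It was lower in soleus with no overlap, at 0.615-fold (interval 0.460 to 0.820, adjusted p = 0.0108).

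**Figure D5:**
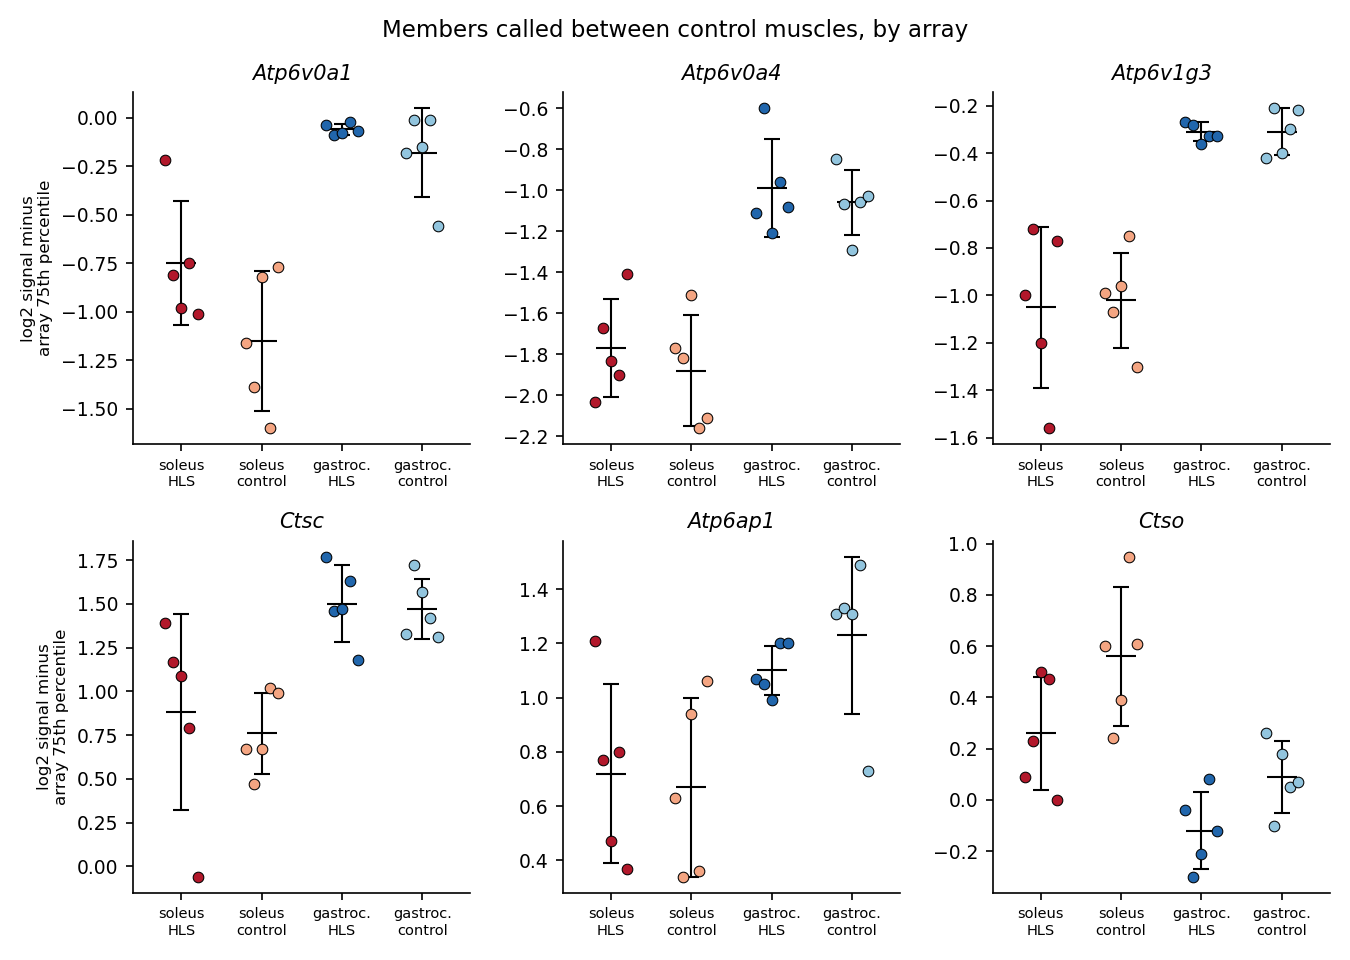
Levels on each array (log2 signal minus the array's 75th percentile) of Atp6v0a1, Atp6v0a4, Atp6v1g3, Ctsc, Atp6ap1 and Ctso in the 4 groups; points are arrays, bars the mean and SD of 5. The soleus groups lie below the gastrocnemius groups for Atp6v0a4, where soleus control spans -2.16 to -1.51 and gastrocnemius control -1.29 to -0.85.

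Lamp2, at the control levels given above, was higher in soleus by 0.36 ± 0.11 (SE, adjusted p = 0.013), with soleus control 2 among the gastrocnemius arrays, and its second probe gave 0.35 ± 0.13 (SE, adjusted p = 0.0381). Lamp1 differed by 0.01 (interval -0.19 to 0.22), Ctsb by 0.13 (interval -0.07 to 0.34), Ctsd by -0.03 (interval -0.27 to 0.21) and Atp6v0c by -0.23 (interval -0.50 to 0.04). At an unadjusted p below 0.05 there were 15 of 38 members and 11160 genes. A dimmer second probe of Ctsd gave -0.47 (adjusted p = 0.043), and the second probe of Atp6v0a2 gave 0.61 (adjusted p = 0.023) where its brightest gave -0.08.

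The neighbouring lysosomal lists were also mixed between the control muscles, where 12.6% of all genes were called higher and 20.9% lower. Of the 35 hydrolases and activators 7 were higher in soleus, led by Gm2a, a glycolipid carrier, at 1.02 (adjusted p = 0.000991), and Ppt1, a depalmitoylating enzyme, at 0.70 (adjusted p = 0.00125), and 3 were lower, led by Gaa, the glycogen-degrading acid glucosidase, at -1.09 (adjusted p = 0.00535). Of the sorting genes both mannose 6-phosphate receptors, M6pr at 0.74 (adjusted p = 0.0092) and Igf2r at 0.43 (adjusted p = 0.0111), were higher and Sort1 was lower at -0.81 (adjusted p = 0.0252). Of the 14 membrane proteins 2 were higher and 2 lower. Of the 10 cathepsin inhibitors 5 were lower and 1 higher, Stfa2, a stefin, being the lowest at -1.09 (adjusted p = 0.000518) and Serpina3g the 1 that was higher (0.78, adjusted p = 0.0402). All 4 adipocyte markers were higher in soleus control as well, Adipoq by 2.52 (adjusted p = 0.000553), and their summed level ran from 8.06 to 34.2 in soleus control, against 2.61 to 3.95 in gastrocnemius control; their part in these differences was not tested.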

How the data were processed

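The arrays were one-colour Agilent arrays with 43379 non-control spots each. The deposited files hold the authors' scanner output, and the processed signal used here is an intensity that Agilent Feature Extraction 9.1.3.1 made, per the file headers. The deposited series table holds values within 0.995 to 1.005 times those of the scanner files. From each intensity log2 was taken and the array's 75th percentile subtracted. Outlier spots (3 to 43 an array) were left out, and spots of a probe were averaged. A gene was tested where its probe was well above background on at least 4 of 5 arrays of a group. A means model of the 4 groups was fitted in limma 3.58.1 (R 4.3.3) and tested on simulated data. The number of arrays limits the precision.

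Full values are given for genes called in a comparison, for the 4 with the lowest p where fewer than 4 were called, and for Ctsl, Ctsb, Ctsd, Lamp1, Lamp2 and Atp6v0c throughout. The members and lists were chosen with earlier results of these data known. Per the labels each sample carries an animal number and both muscles were excised from each animal, so equal numbers in an arm were taken as 1 animal; the correlation of their deviations from the group means ran from -0.345 to 0.172 (median 0.0335, 10 animals). Array names were updated through RefSeq, by accession for 22951 probes, by symbol for 6659 and by older symbol for 3109, and 8455 kept the name in the file. Alternatives covered scaling, background correction, the filter, probe choice, slide, scan day, pairing and leaving out each array. Figures were drawn with matplotlib 3.10.9.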

Additional observations from a re-analysis of the deposited data

Results flagged for a closer look

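Of 152 groups of 5 arrays (38 genes in 4 groups), 6 held an array far from the other 4, where chance alone would give about 7.6, or 1 in 20. The gap to the nearest array took up more than 0.71 of the group's range in each. Ctsl was at 6.82 on soleus HLS array 5. On soleus HLS array 1, Atp6v0d1 was at 1.45 and Atp6v1b2 at -0.12. On gastrocnemius HLS array 3, Atp6v0c was at -0.48 and Ctse at -1.21. Atp6ap1 was at 0.73 on gastrocnemius control array 5.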

How the results depend on the processing

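Ctsl, Ctsf and Atp6ap2 kept their soleus calls in all 10 fits that left out 1 array, and the soleus count then ran from 3 to 5. It was 1 with only the 10 arrays of the contrast, where Ctsl was called (adjusted p = 0.024) and Ctsf (0.065), Atp6ap2 (0.06) and Atp6v0e2 (0.17) were not, and 0 with slide as a block. The gastrocnemius count of 1 ran from 0 to 1 with 1 array left out. It was 0 with each array centred on its median, with the bare replicate number as a block, with scan day as a block and with slide as a block; 2 with slide as a random block, with the authors' series table and with probes well above background on all 20 arrays; 3 with normexp or with only the 10 arrays of the contrast; and 4 with quantile normalization. The count for the difference between the muscles was 0 throughout, from 0 to 0 with 1 array left out. The count between control muscles ran from 10 to 12 with 1 array left out and was 0 with scan day as a block. With the animal as a replicate block it was 12, and the difference count 0; the bare number, which joins different animals, gave 3 in soleus. Normexp called 1973 genes of all in soleus.

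Read on other probes, Atp6v1g2 (-0.21), Atp6v1h (-0.56) and Atp6v0a1 (0.12) had the opposite sign between control muscles, and no other called difference did. In the refits that kept or averaged the probes, no called difference changed sign. Among genes not called, the soleus HLS difference of Ctsb was 0.01 with the mean of all probes, 0.02 with quantile normalization, 0.00 with scan day and 0.07 with slide as a block, and -0.07 to 0.05 with 1 array left out; that of Ctsd was -0.07 with slide as a block. The gastrocnemius difference of Lamp2 was 0.04 with the mean of all probes, 0.12 with scan day and 0.10 with slide as a block. Between control muscles, Ctsb was -0.01 and Lamp1 -0.16 with quantile normalization, Ctsd was 0.14 with median centring and 0.13 with scan day as a block, and with 1 array left out Ctsd ran from -0.09 to 0.06 and Lamp1 from -0.04 to 0.06. For the difference between the muscles, median centring gave -0.01 for Ctsb and 0.00 for Lamp1; normexp gave 0.08 for Atp6v0d2, -0.07 for Ctsb and -0.03 for Lamp1; the mean of all probes gave 0.05 for Ctsd; scan day as a block gave -0.27 for Ctsl and -0.04 for Lamp1; and slide as a block gave -0.34 for Ctsl, -0.05 for Atp6v0e2 and -0.11 for Lamp1. With 1 array left out, that difference ran from -0.04 to 0.08 for Ctsb, from -0.13 to 0.01 for Ctsd and from -0.03 to 0.09 for Lamp1. The cause was not tested.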
